A study of Homo sapiens with 23 samples.

Results

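Neural patterning transcription factors are the proteins that give each stretch of the early neural tube its regional identity. The genes described here were taken from the symbols of the deposited tables: all listed genes of the IRX, PAX, SOX, ZIC, LHX, OTX, MEIS, PBX, DLX, sine oculis (SIX4, SIX5 and their relatives), TBX, EMX, BARHL, GLI, FOX, NKX, NR2F and HOX families, with FOXJ1, SOX2, PAX6 and OTX2 left out. By this rule 42 of the 9497 listed genes were patterning factors. They belonged to 13 of the 18 families. RefSeq holds 194 symbols that match the same rule, so 152 of them were not analysed here, among them every DLX, TBX, EMX, NKX and HOX gene and SIX3 and SIX6.

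Patterning factors work in combinations along the axes of the neural tube. ZIC zinc-finger proteins and the paired-box proteins PAX3 and PAX7 are known for the dorsal neural tube, GLI proteins carry the Hedgehog signal of the ventral side, and LIM-homeobox, OTX, IRX and BARHL proteins divide the brain from front to back, the thalamus and the rest of the diencephalon included. SOX proteins of the SOX1 and SOX3 kind keep neural progenitors undifferentiated, SOX4 and SOX11 act in newborn neurons, and the homeodomain proteins MEIS and PBX bind DNA together with other homeodomain proteins.

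The libraries came from thalamus organoids (ThOs), stem cell cultures guided towards thalamic tissue, with BMP7 and the MEK inhibitor PD325901 in the patterning medium. All were grown from the human embryonic stem cell line H1. The WT groups came from unedited H1, the KO groups from H1 edited by CRISPR at c-JUN, which forms part of the AP-1 transcription factor, and the OE groups from KO cells carrying a doxycycline-driven c-JUN construct. Harvests were at day 25 and day 30 with 2 libraries for each genotype, and each library held 3 pooled ThOs. The study describes 2 knockout lines, and the labels do not say which line gave which KO library. Another 11 samples of the series, 9 for chromatin accessibility and 2 for c-JUN binding, were not analysed here.

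Each table held a whole-number normalized expression score for every gene, from 11 to 9910, and every library had its median at 106. Depth is unknown and no counting error could be attached, so replicate libraries were the only measure of error. The study's methods speak of separate batches for all experiments but tie none of these libraries to a batch or culture, so p-values measure only the spread between these libraries. Every listed gene scored at least 11 in every library, and 11 was the lowest score of each library. The normalization is not given, so whether a gene without reads could carry a low score is not known. The scores therefore do not show whether any of the 42 was silent in some library. Scores were compared between libraries. Scaling by gene length is not stated, so the order of different genes by score is not an order of expression.

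JUN, the targeted gene, was not lower in the libraries labelled KO. It scored 139 and 153 in WT, 353 and 196 in KO and 224 and 212 in OE at day 25. Day 30 gave 128 and 162 in WT, 222 and 248 in KO and 362 and 202 in OE. Every KO library was above every WT library, and the log2 fold change over both days was 0.77 (SE 0.229, limma adjusted p = 0.197). For OE against KO the JUN log2 fold change was -0.03 (SE 0.229, adjusted p = 0.949). An edited transcript can still be counted, so this does not show whether c-JUN protein was present. The study checked its lines for c-JUN by western blot and RT-qPCR, which were not analysed here. Every direction given below rests on the genotype labels. TCF7L2, the thalamic marker of the study, ranged from 128 to 246 in WT, 109 to 341 in KO and 123 to 465 in OE, and its log2 fold change of KO against WT was 0.04 (SE 0.469, adjusted p = 0.977). Of 26 markers of thalamus and diencephalon, 14 were listed and 10 of these are patterning factors described here. None of 17 telencephalon and none of 10 endothelial markers was listed, and only WNT1 of 18 midbrain and hindbrain markers was.

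The dorsal factor PAX3 was the only patterning factor that passed the full test in any comparison of genotypes or days. That test asked for at least 2-fold and a limma adjusted p under 0.05, with one fit over all 12 libraries and adjustment over all 9497 genes. Its product is a paired-box and homeodomain protein of the dorsal neural tube and neural crest. At day 25 PAX3 scored 309 and 267 in WT, 401 and 235 in KO and 162 and 128 in OE. Day 30 gave 310 and 214 in WT, 626 and 417 in KO and 173 and 102 in OE. All 4 OE libraries lay below all 4 KO libraries and below all 4 WT libraries, while KO and WT overlapped. PAX3 fell by 1.51 on the log2 scale in OE against KO over both days (SE 0.243, adjusted p = 0.0133). That was 1 of 42 patterning factors called, or 2.38%, where 2.22% of all genes were called in this comparison, so the count is near the background. The call was lost at an adjusted p of 0.0646 without OE day 25 replicate 2 and of 0.0706 without OE day 30 replicate 2, and also with library weights (0.0564) and with only the KO and OE libraries in the fit (0.0651).

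The zinc-finger factor ZIC4, which is known from the dorsal midline of the brain, had the second smallest p among patterning factors in OE against KO but stayed under 2-fold. It scored 710 and 640 in WT, 823 and 572 in KO and 428 and 406 in OE at day 25. At day 30 the scores were 564 and 548 in WT, 564 and 570 in KO and 420 and 297 in OE. The OE libraries lay below every other library at both days. The log2 fold change of OE against KO was -0.70 (SE 0.152, adjusted p = 0.0365) and that of OE against WT was -0.67 (adjusted p = 0.144). KO and WT differed by 0.03 on the log2 scale (SE 0.152). The adjusted p of OE against KO was over 0.05 in 7 of 18 alternatives and reached 0.171 without OE day 30 replicate 2.

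SOX11, a factor of newborn neurons, had an adjusted p under 0.05 in OE against KO and a change under 2-fold. It scored 808 and 748 in WT, 598 and 542 in KO and 925 and 877 in OE at day 25. At day 30 it scored 710 and 877 in WT, 592 and 546 in KO and 662 and 823 in OE. The 4 KO libraries were the lowest of the 12. The log2 fold change was 0.52 in OE against KO (SE 0.122, adjusted p = 0.0441) and -0.46 in KO against WT (SE 0.122, adjusted p = 0.185). With the replicate number as a block the adjusted p of OE against KO was 0.0647, and in 10 of 18 alternatives it was over 0.05, up to 0.211 without OE day 30 replicate 2.

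**Figure D1:**
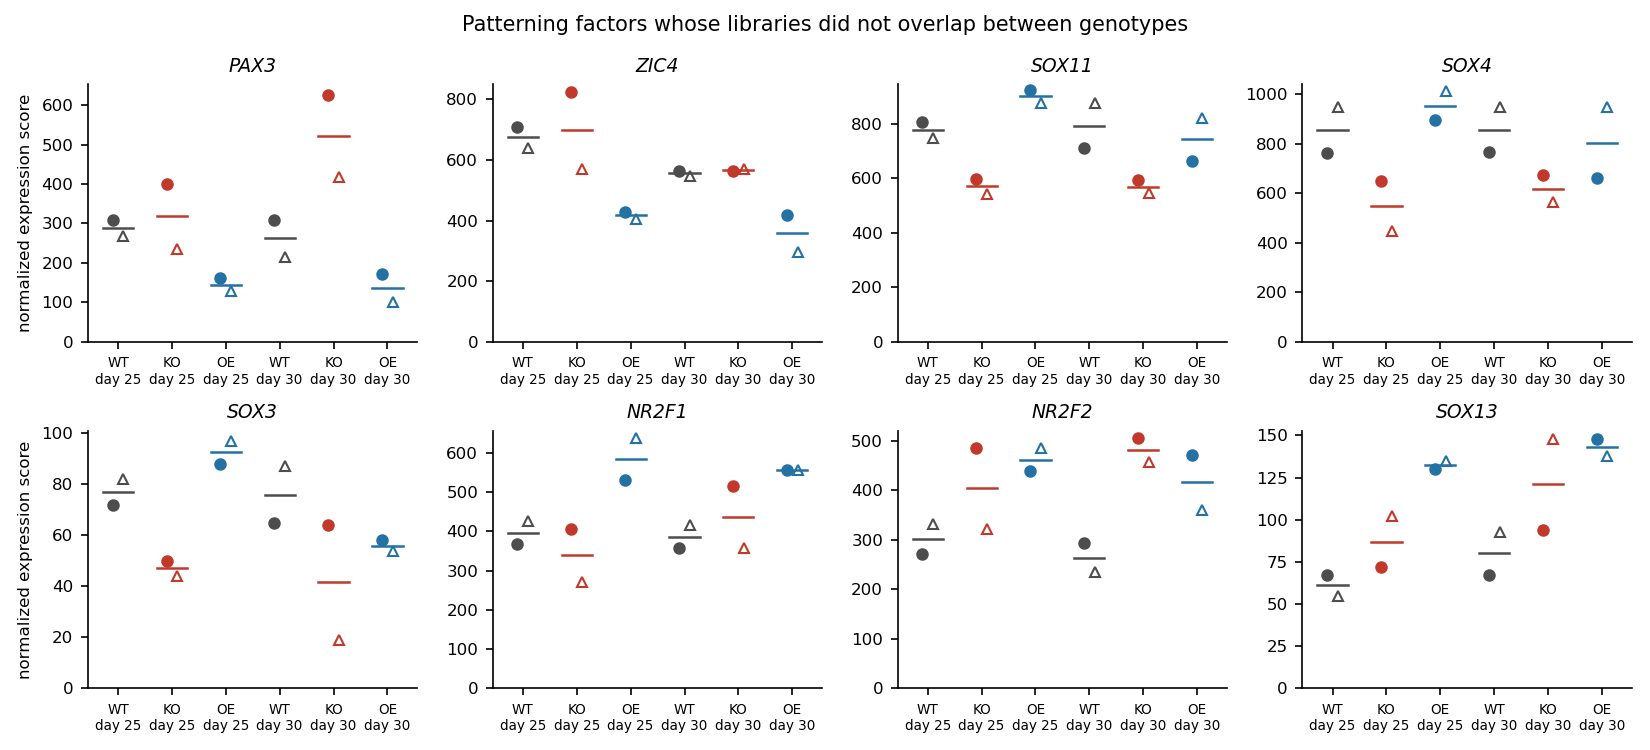
Normalized expression score (vertical axis, from 0) of 8 patterning factors in the 6 groups, with circles for replicate 1, triangles for replicate 2 and a line for the mean of both. PAX3 and ZIC4 were lowest in OE, SOX11 was lowest in KO, and NR2F2 and SOX13 were lowest in WT at each day.

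The SOX family had 8 listed members. The related SOX4, also a factor of newborn neurons, scored 763 and 946 in WT, 649 and 446 in KO and 895 and 1010 in OE at day 25. The day 30 scores were 764 and 946 in WT, 674 and 563 in KO and 660 and 946 in OE. Every KO library lay below every WT library, and the change was -0.56 on the log2 scale (SE 0.168, adjusted p = 0.197). SOX3, a progenitor factor, scored 72 and 82 in WT, 50 and 44 in KO and 88 and 97 in OE at day 25, and 65 and 87 in WT, 64 and 19 in KO and 58 and 54 in OE at day 30. Its KO libraries also lay below all WT libraries, the closest pair being 64 and 65, and the change of -0.89 on the log2 scale (SE 0.320, adjusted p = 0.244) was -0.42 without both KO replicate 2 libraries.

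SOX3, SOX4 and SOX11 were the only patterning factors whose KO and WT libraries did not overlap over both days. They made up 3 of 42, or 7.14%, beside 5.88% of all genes, and all 3 were lower in KO, beside 3.14% of all genes. Any gene without overlap between 4 libraries and 4 has an exact two-sided permutation p of 0.0286, the smallest possible. This p therefore adds nothing to the lack of overlap. Leaving libraries out cannot create overlap, so these 3 genes had to remain when both KO replicate 2 libraries were left out. FOXJ3, IRX2, NR2F2, PAX3, PAX7, PBX3 and ZIC1 above WT and GLI2 and LHX5 below it were then also without overlap. In that smaller comparison 8.70% of all genes lay above WT and 9.08% below.

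SOX1, which like SOX3 marks neural progenitors, scored 74 and 114 in WT, 31 and 16 in KO and 91 and 155 in OE at day 25. At day 30 it scored 44 and 82 in WT, 74 and 64 in KO and 45 and 94 in OE. Only the day 25 KO libraries stood apart. SOX13 went the other way: it scored 67 and 55 in WT, 72 and 102 in KO and 130 and 135 in OE at day 25, and 67 and 93 in WT, 94 and 148 in KO and 148 and 138 in OE at day 30. All its OE libraries lay above all WT libraries, and the change was 0.98 on the log2 scale (SE 0.216, adjusted p = 0.143). The glial and progenitor factor SOX9 (220 to 332 over all libraries), SOX5 (54 to 112) and SOX12 (220 to 378) overlapped between every pair of genotypes. SOX4 and SOX11 varied together, with a Pearson correlation of 0.90 across the 12 libraries, which share their genotype groups.

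The COUP-TF nuclear receptors NR2F1 and NR2F2 pattern the forebrain, and both lay higher in OE than in WT without overlap. NR2F1 scored 368 and 426 in WT, 406 and 272 in KO and 531 and 638 in OE at day 25, and 358 and 416 in WT, 516 and 359 in KO and 558 and 558 in OE at day 30. Its OE libraries lay above all others, with log2 fold changes of 0.59 against KO (SE 0.170, adjusted p = 0.0812) and 0.54 against WT (SE 0.170, adjusted p = 0.367). NR2F2 scored 272 and 331 in WT, 486 and 322 in KO and 438 and 486 in OE at day 25, and 293 and 234 in WT, 506 and 456 in KO and 472 and 361 in OE at day 30. Here KO and OE were alike in range and the WT libraries were low: the log2 fold changes against WT were 0.64 for KO (SE 0.170, adjusted p = 0.188) and 0.64 for OE (SE 0.170, adjusted p = 0.232). NR2F6 ranged from 61 to 152 and overlapped between all genotypes.

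PAX7, the paralogue of PAX3, had the largest fold change of KO against WT among the 42. It scored 48 and 66 in WT, 132 and 40 in KO and 98 and 104 in OE at day 25, and 52 and 28 in WT, 166 and 128 in KO and 146 and 64 in OE at day 30. The KO library of day 25 at 40 lay inside the WT range. The log2 fold change was 1.14 in KO against WT (SE 0.384, adjusted p = 0.228) and 1.07 in OE against WT (SE 0.384, adjusted p = 0.475). OE and KO differed by -0.06 (SE 0.384). PAX7 followed NR2F2 more closely than any other pair of patterning factors followed each other, with a correlation of 0.96 over the 12 libraries. That is the highest of 861 pairs, whose median was 0.18, and the libraries share their genotype groups. PAX3 and PAX7 correlated at 0.26.

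Among the other ZIC genes, ZIC1 had its highest scores in the KO replicate 1 libraries and ZIC2 its lowest in the KO replicate 2 libraries. ZIC1 scored 1412 and 1743 in WT, 2672 and 1468 in KO and 1083 and 1260 in OE at day 25, and 1412 and 1604 in WT, 9910 and 1882 in KO and 1743 and 1412 in OE at day 30. The score of 9910 in KO day 30 replicate 1 is the maximum that all 12 tables share. ZIC1 ranked 1 of 9497 genes in that library and 24 to 152 in the others. How far a score that each table gives to its top gene measures an amount of RNA is not known. The log2 fold changes of ZIC1 were 0.93 in KO against WT (SE 0.395, adjusted p = 0.300) and -1.11 in OE against KO (SE 0.395, adjusted p = 0.138). Without KO day 30 replicate 1 they were 0.33 and -0.51, and without KO day 30 replicate 2 they were 1.53 and -1.71. Both fits leave a lone KO library at day 30, whose spread is borrowed from the other groups. ZIC2, in which loss of function is known to cause failed division of the forebrain, scored 822 and 733 in WT, 440 and 286 in KO and 496 and 524 in OE at day 25. At day 30 it scored 721 and 702 in WT, 733 and 310 in KO and 528 and 578 in OE. Its OE libraries lay below all WT libraries, and its log2 fold change of KO against WT was -0.85 (SE 0.233, adjusted p = 0.193). ZIC5 ranged from 209 to 300 in WT, 126 to 300 in KO and 190 to 226 in OE.

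**Figure D2:**
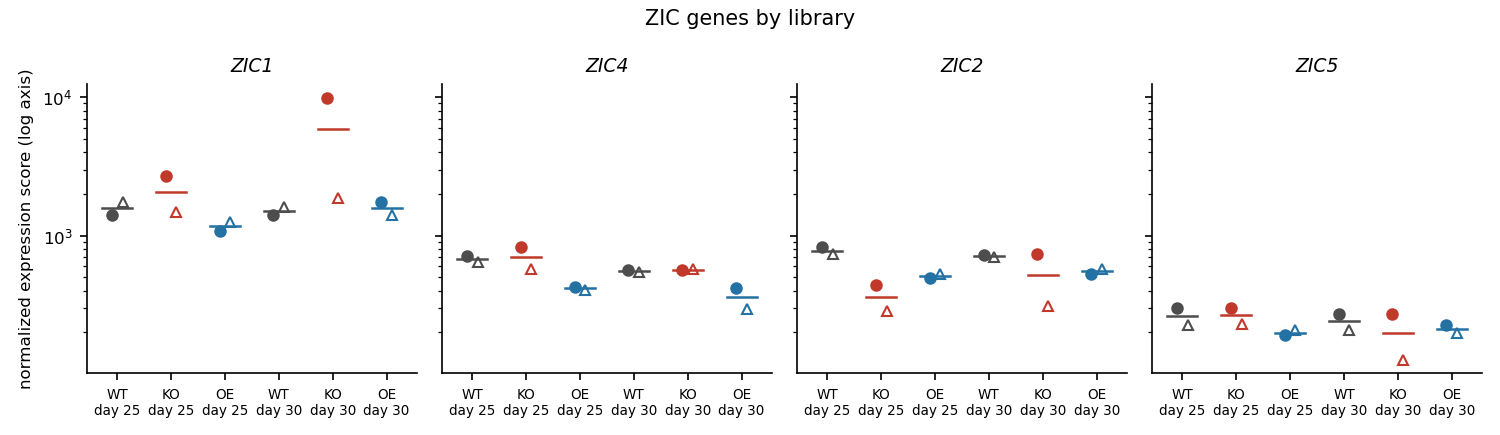
Normalized expression score on a log axis for ZIC1, ZIC4, ZIC2 and ZIC5, with circles for replicate 1, triangles for replicate 2 and lines for group means. ZIC1 reached 9910 in 1 KO library at day 30, and ZIC4 was lowest in OE. ZIC2 was lowest in both KO replicate 2 libraries, and ZIC5 was lowest in KO day 30 replicate 2.

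ZIC genes lie in pairs on the chromosome. ZIC4 (chr3:147386046-147406809, minus strand) and ZIC1 (chr3:147393422-147510293, plus strand) overlap by 13388 bases in the positions of the tables, which are on GRCh38. The study's methods describe a library preparation that keeps the strand of the RNA, which could separate these genes. Use of strand in the counting is not stated, so reads of the overlap could have been assigned to either gene and both values are uncertain to that degree. ZIC5 (chr13:99962964-99971767, minus strand) and ZIC2 (chr13:99981784-99986765, plus strand) are 10016 bases apart. Across the 12 libraries ZIC1 and ZIC4 correlated at 0.30 and ZIC2 and ZIC5 at 0.53. After subtraction of the group means these values were 0.26 and 0.91, each resting only on the difference between the 2 libraries of each group. For ZIC2 and ZIC5 the largest difference was in KO at day 30 (1.24 and 1.10 on the log2 scale). There 32 of 42 patterning factors were higher in replicate 1. Whether 0.91 is particular to this pair was not tested. No other patterning factors lay within 500000 bases of each other.

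GLI2 and GLI3 are the transcription factors at the end of the Hedgehog pathway. GLI2 scored 118 and 135 in WT, 48 and 43 in KO and 102 and 98 in OE at day 25, and 75 and 130 in WT, 69 and 89 in KO and 68 and 108 in OE at day 30. The KO libraries stood apart at day 25 and overlapped with WT at day 30. The log2 fold change of KO against WT was -0.89 over both days (SE 0.234, adjusted p = 0.181). GLI3 ranged from 156 to 281 in WT, 93 to 281 in KO and 168 to 206 in OE. Of 25 other Hedgehog pathway genes 19 were listed, and 0 of these were called in KO against WT, OE against KO or OE against WT by either test. Over all genes 2.08%, 4.98% and 1.19% were called in these comparisons at an unadjusted p and 2-fold. The smallest p-values of KO against WT among the 19 Hedgehog genes belonged to GPR161, GAS1 and the receptor PTCH1, with log2 fold changes of -0.71, -0.61 and -0.65 (adjusted p = 0.176, 0.220 and 0.223).

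The factors that divide the diencephalon along its axes showed wide overlap. LHX9, a LIM-homeobox factor of thalamic neurons, scored 200 and 190 in WT, 352 and 210 in KO and 148 and 484 in OE at day 25, and 309 and 330 in WT, 297 and 118 in KO and 220 and 462 in OE at day 30. KO lay above WT at day 25 and below it at day 30. LHX5 ranged from 64 to 113 in WT, 54 to 94 in KO and 54 to 215 in OE. IRX2 ranged from 22 to 93 in WT, 60 to 103 in KO and 34 to 150 in OE, and IRX3 from 28 to 70, 14 to 76 and 38 to 108. BARHL1 ranged from 62 to 129 in WT, 48 to 102 in KO and 76 to 109 in OE. OTX1, a forebrain and midbrain factor, scored 282 and 194 in WT, 192 and 104 in KO and 120 and 190 in OE at day 25, and 268 and 234 in WT, 297 and 83 in KO and 160 and 94 in OE at day 30. All its OE libraries lay below all WT libraries, the closest pair being 190 and 194, at -0.83 on the log2 scale (SE 0.374, adjusted p = 0.605).

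MEIS1 ranged from 47 to 153 in WT, 37 to 186 in KO and 89 to 253 in OE, and MEIS3 from 158 to 211, 112 to 182 and 142 to 265. PBX2 ranged from 394 to 558 in WT, 292 to 528 in KO and 383 to 563 in OE. PBX3 ranged from 72 to 109 in WT, 62 to 138 in KO and 84 to 130 in OE. None of these TALE homeodomain factors was without overlap between genotypes over both days. Of 15 cofactors of TALE and LIM proteins 14 were listed. PBXIP1, whose product binds PBX proteins, was the only one that passed the full test in the 3 comparisons of genotypes. It fell by 1.09 on the log2 scale in OE against KO (adjusted p = 0.0416), where 1.17% of all genes fell at that test.

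The forkhead family gave 9 members, mostly of broadly expressed kinds. FOXN3, a repressor, scored 173 and 140 in WT, 64 and 101 in KO and 185 and 172 in OE at day 25, and 126 and 156 in WT, 126 and 126 in KO and 139 and 149 in OE at day 30. Its OE libraries lay above all KO libraries, at 0.66 on the log2 scale (SE 0.188, adjusted p = 0.0773). FOXK1 ranged from 280 to 586 in WT, 108 to 342 in KO and 276 to 400 in OE (KO against WT -0.87, SE 0.270, adjusted p = 0.208). FOXO3, a factor downstream of insulin signalling, scored 21 in KO day 30 replicate 2 and between 143 and 214 in the other 11 libraries. FOXJ2, FOXJ3, FOXK2, FOXN2, FOXP1 and FOXP4 overlapped between all genotypes over both days, as did SIX4 (22 to 74) and SIX5 (55 to 105).

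Counted over all 42 in KO against WT, 10 patterning factors were higher and 32 lower, with a median log2 fold change of -0.24, while 47.8% of all genes were higher with a median of -0.02. In OE against KO 29 were higher and 13 lower, with a median of 0.26 beside 0.01 for all genes. In OE against WT 21 were higher and 21 lower, with medians of 0.00 for the patterning factors and 0.00 for all genes. These comparisons share libraries, so the values for KO against WT and OE against KO are not independent of each other.

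This shift came with the KO replicate 2 libraries. With KO replicate 1 alone, 21 patterning factors were higher than WT and 21 lower, with a median of 0.01. With KO replicate 2 alone, 10 were higher and 32 lower, with a median of -0.50 beside -0.01 for all genes. For OE against KO the medians were -0.02 with KO replicate 1 and 0.48 with KO replicate 2. The labels do not say whether the replicate number stands for a KO line. This split was chosen after the scores were seen, and the difference between its sides was not tested.

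**Figure D3:**
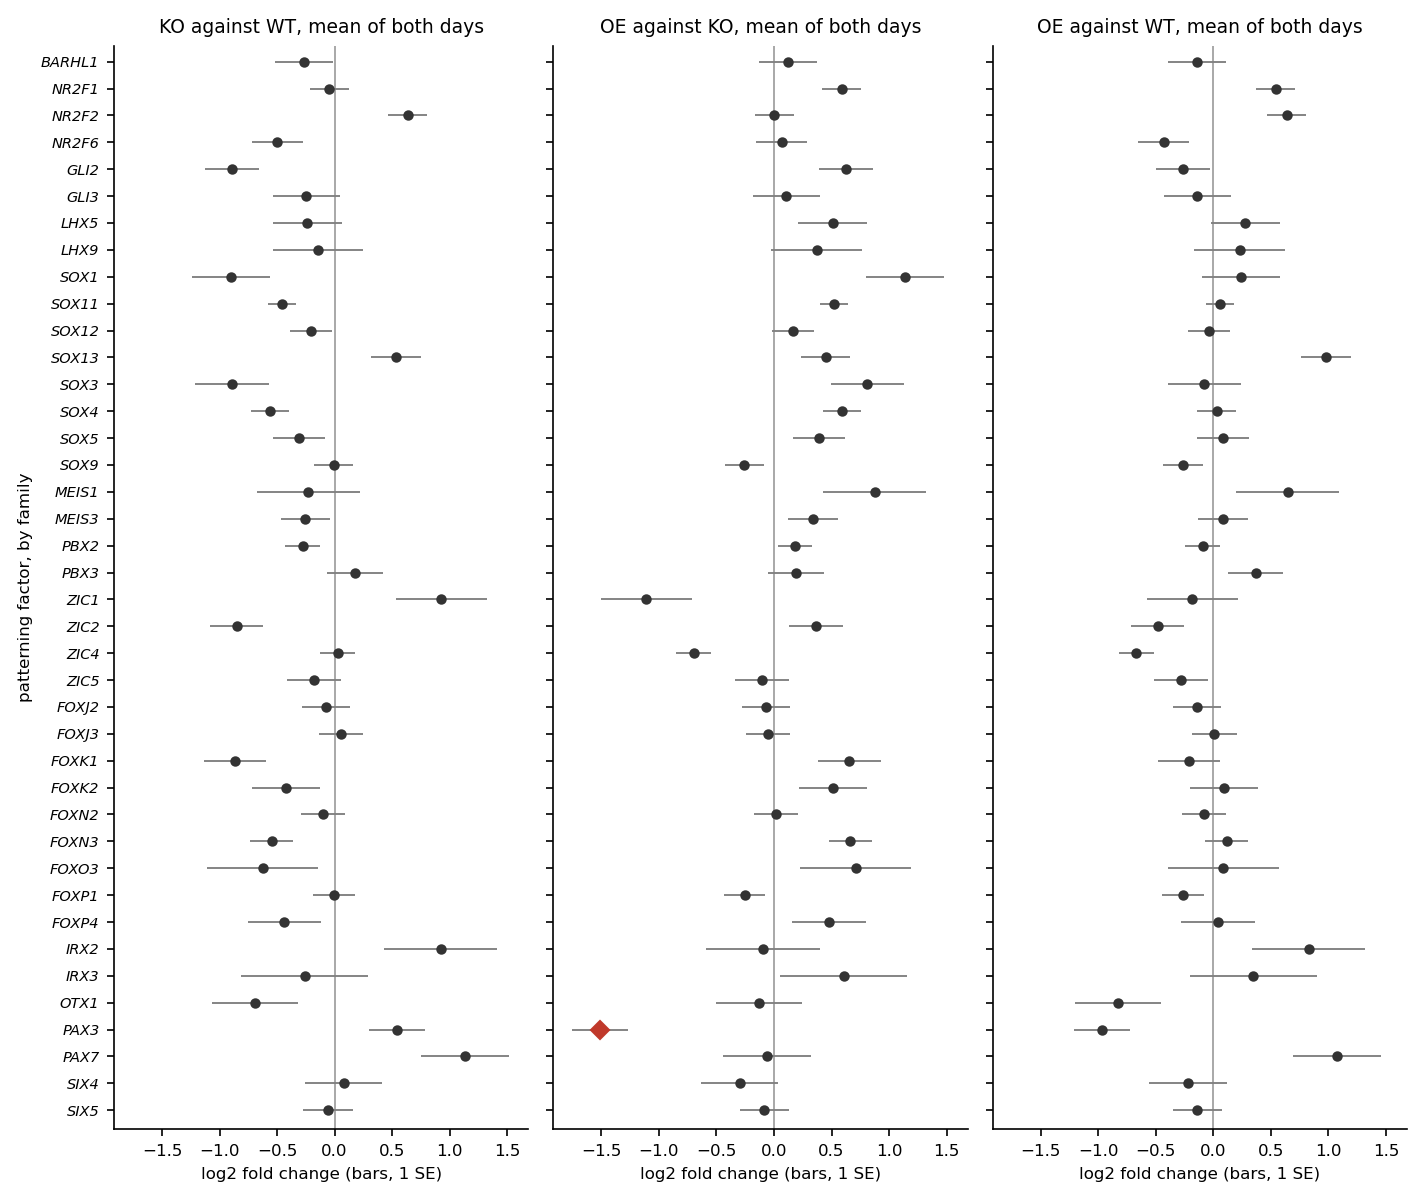
Log2 fold change (horizontal axis) of 40 of the 42 patterning factors, grouped by family, in the 3 comparisons of genotypes over both days, with bars of 1 standard error. The red diamond marks PAX3 in OE against KO, the only change that passed the full test, and 30 of the 40 points lie below 0 in KO against WT.

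No patterning factor was called in KO against WT at an adjusted p under 0.05 and 2-fold, where 0.0211% of all genes were called over both days, 0.0105% at day 25 and 0% at day 30. At an unadjusted p under 0.05 and 2-fold the count over both days was 1 (PAX7), or 2.38% beside 2.08% of all genes. At day 25 it was 4, or 9.52% beside 5.31%, with GLI2, SOX1 and ZIC2 among them. All 4 were lower in KO, as were 2.84% of all genes. At day 30 it was 3, or 7.14% beside 2.94%: PAX7 and ZIC1 higher and SOX3 lower. In OE against KO it was 3, or 7.14% beside 4.98%: SOX1 higher and PAX3 and ZIC1 lower. Over both days 5 of 42 were without overlap in OE against KO, beside 9.68% of all genes: FOXN3, NR2F1 and SOX11 above and PAX3 and ZIC4 below. In OE against WT 0 were called at an adjusted p, beside 0.158% of all genes, and 1 (PAX7) at an unadjusted p, beside 1.19%. In that comparison 7 of 42, or 16.7%, were without overlap beside 8.47% of all genes: NR2F1, NR2F2 and SOX13 above WT and OTX1, PAX3, ZIC2 and ZIC4 below it. These counts depended on 1 library: without KO day 30 replicate 1, 6 patterning factors (14.3%) were called at an adjusted p in KO against WT, beside 5.66% of all genes. At day 30 it was then 7 (16.7%) beside 11.4%, and in OE against KO 5 (11.9%) beside 10.2%, so calls rose over all genes too. Without KO day 30 replicate 2, 2 (4.76%) were called in OE against KO (PAX3 and ZIC1), beside 0.653%.

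Between day 25 and day 30, averaged over genotypes, 0 of 42 patterning factors passed at an adjusted p (0% of all genes did) and 0 at an unadjusted p (0.411% of all genes did), both with limma and at 2-fold. The interaction of KO effect and day gave 0 patterning factors at an adjusted p under 0.05 (0% of all genes) and 5 at an unadjusted p (5.63% of all genes): FOXJ2, FOXP1, GLI2, SIX5 and SOX1, each with an adjusted p of 0.802. FOXJ2, FOXP1 and SIX5 lay below WT at day 25 and above WT at day 30 in all libraries. FOXJ2 scored 92 and 106 in WT and 56 and 60 in KO at day 25, against 54 and 54 in WT and 64 and 108 in KO at day 30.

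The 2 KO libraries of a day were farther apart than those of the other genotypes. At day 30, 13 of 42 patterning factors (31.0%) differed at least 2-fold between the 2 KO libraries, beside 21.5% of all genes, and at day 25 it was 7 of 42 (16.7%) beside 17.4%. In OE it was 5 of 42 at day 25 (11.9%) beside 2.15% and 3 at day 30 (7.14%) beside 3.23%. In WT it was 2 of 42 on each day (4.76%), beside 4.45% at day 25 and 1.75% at day 30. The patterning factors also leaned to one side. They were higher in replicate 1 for 34 of 42 at day 25 and 32 of 42 at day 30, where 50.0% and 49.2% of all genes were. KO day 25 replicate 2 was the lowest of the 12 libraries for 15 patterning factors (35.7%, beside 15.8% of all genes) and KO day 30 replicate 2 for 14 (33.3%, beside 23.0%). The factors with the widest gaps were FOXO3 (180 and 21) and ZIC1 (9910 and 1882) at day 30, IRX3 (76 and 14) at day 25 and OTX1 (297 and 83) at day 30.

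**Figure D4:**
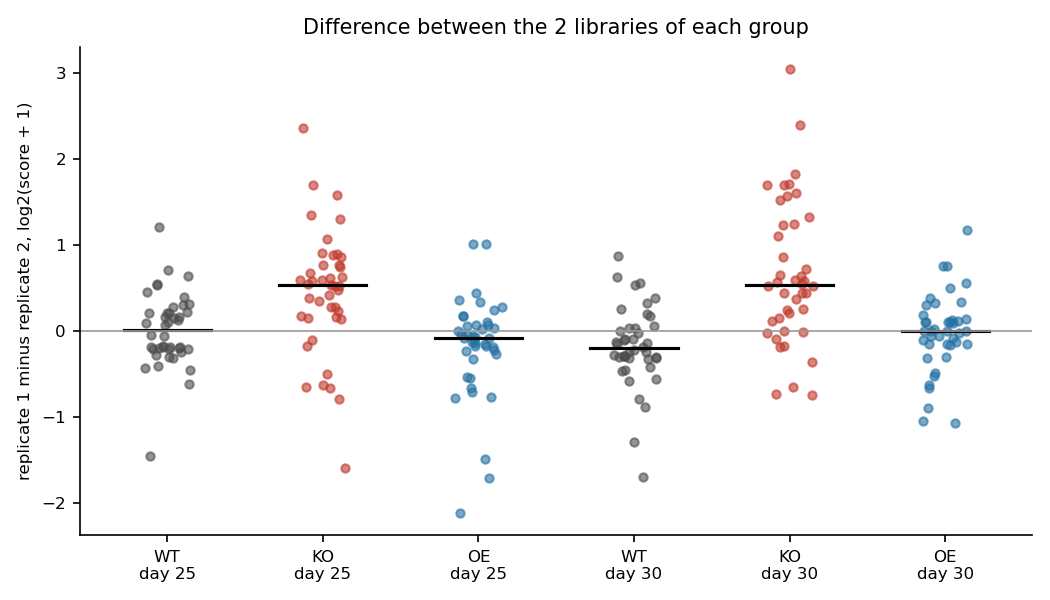
Difference of log2(score + 1) between replicate 1 and replicate 2 for each of the 42 patterning factors in the 6 groups, with a black line at the median. The medians were 0.53 in both KO groups and between -0.20 and 0.01 in the WT and OE groups.

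Marker sums of other cell types were set beside these differences, and their part in them was not tested. In these bulk samples, fewer cells of a type and less RNA per cell cannot be told apart. The summed score of 13 listed choroid plexus markers (of 15) was 12515 in KO day 25 replicate 2 and 5225 in replicate 1, and at day 30 it was 4864 in replicate 2 and 6776 in replicate 1. TTR, a transport protein of the choroid plexus, scored 638 and 2672 in these day 30 libraries, and the other 12 markers summed to 4226 in replicate 2 and 4104 in replicate 1. At day 25 the other 12 summed to 9062 in replicate 2 and 4684 in replicate 1. For the 13 together WT ranged from 5115 to 8229 and OE from 3842 to 7901. The sum of 8 radial glia markers (of 12, SOX9 and SOX3 among them) was 3899 and 5654 in the KO replicate 2 libraries, 6131 and 7358 in KO replicate 1, 6540 to 13332 in WT and 6381 to 8263 in OE. The 13332 was WT day 25 replicate 1, where the marker VIM alone scored 9910, beside 2670 to 3456 in the other libraries. The next highest WT sum was 7649, and VIM makes up much of each sum. The sum of 13 cell cycle genes (of 15) was 1939 to 2680 in KO, 2360 to 3329 in WT and 3507 to 3865 in OE. The sum of 8 hypoxia and glycolysis genes (of 12) was 2050 in KO day 30 replicate 2 and 5933 in KO day 30 replicate 1, beside 4813 and 5046 in WT and 4131 and 4826 in OE at day 30. At day 25 it was 2487 and 2202 in KO replicates 2 and 1, 2518 and 3177 in WT and 3425 and 4612 in OE. The 15 listed neuronal markers (of 16) summed to 11014 to 13393 in KO, 9064 to 13458 in WT and 9450 to 13229 in OE. Of 12 neural crest markers only TFAP2B was listed beside PAX3 and PAX7, and SOX10 and FOXD3 were not listed. TFAP2B scored 45 to 70 in WT, 20 to 208 in KO and 62 to 104 in OE.

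Other patterning genes, from lists that do not overlap with the 42, gave more calls. Of 68 further patterning transcription factors and cofactors 39 were listed. They include LMX1B, MSX1 and POU3F3, which the study discussed from these same libraries, so the larger number of calls is partly built in. In KO against WT 0 were called at an adjusted p, and at an unadjusted p and 2-fold 3 were higher (LMX1B, MSX1 and MSX2) and 2 lower (POU3F3 and ZNF503). Over all genes 1.07% were higher and 1.01% lower at that unadjusted threshold. In OE against KO 6 rose (ZNF503, ZEB1, POU3F2, SOX2, TLE3 and ZFHX3) and 2 fell (LMX1B and MSX1) at an adjusted p and 2-fold, where 1.05% of all genes rose and 1.17% fell. LMX1B, a factor of the roof plate and of dopaminergic neurons, scored 134 and 112 in WT, 525 and 388 in KO and 22 and 72 in OE at day 25. The day 30 scores were 160 and 76 in WT, 375 and 368 in KO and 182 and 65 in OE. Its log2 fold change was -2.61 in OE against KO (adjusted p = 0.0114).

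PAX3 and ZIC4 share the dorsal neural tube with the roof plate, the dorsal midline strip that secretes WNT and BMP signals. Of 20 roof plate and dorsal midline genes 17 were listed, ZIC1, ZIC2, ZIC4 and ZIC5 among them. In OE against KO 4 of the 17 fell (LMX1B, WNT1, WNT2B and MSX1) and 2 rose (RSPO2 and WNT8B) at an adjusted p and 2-fold. Their log2 fold changes were -2.61, -2.48, -1.96, -1.47, 3.25 and 1.74. Over all genes 1.17% fell and 1.05% rose in this comparison. In KO against WT 0 were called at an adjusted p, and 5 were higher and 2 lower at an unadjusted p and 2-fold. Over all genes 1.07% were higher and 1.01% lower at that unadjusted threshold. RSPO2, a secreted amplifier of WNT signalling, scored 436 and 580 in WT, 26 and 28 in KO and 1606 and 678 in OE at day 25, and 328 and 455 in WT, 112 and 54 in KO and 78 and 460 in OE at day 30. The list holds genes that the study discussed from these same libraries.

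Promoter sequence was examined for letters that match the AP-1 site, since c-JUN is part of AP-1. RefSeq promoters were given for 32 of the 42 patterning factors, 52 windows in all, and the 250 bases before each start were searched on both strands. The AP-1 letters TGANTCA occurred in 3 of 52 windows (5.77%), beside 6.57% of 35116 promoters. They were in windows of FOXO3, FOXP1 and GLI2. The homeodomain letters TAATTA occurred in 1 window (FOXJ3, 1.92%), beside 4.35% of all promoters. A match is a run of letters and not a site shown to be bound. The 3 windows with an AP-1 match are printed because c-JUN was the targeted protein, and the PAX3 window because PAX3 was the factor called. All are from RefSeq on GRCh38.p14, 5′ to 3′ on the strand of the gene, with the match in capitals and none in PAX3.

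GLI2, plus strand, chr2:120792031-120792280, inside the GLI2 gene as listed (chr2:120735623-120992653), at an internal start, with the match 170 bases before it: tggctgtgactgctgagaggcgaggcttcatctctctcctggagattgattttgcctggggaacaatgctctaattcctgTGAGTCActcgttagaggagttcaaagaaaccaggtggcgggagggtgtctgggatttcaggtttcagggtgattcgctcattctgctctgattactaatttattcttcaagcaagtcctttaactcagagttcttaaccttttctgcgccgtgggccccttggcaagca

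FOXO3, plus strand, chr6:108588523-108588772, inside the FOXO3 gene as listed (chr6:108559835-108684774), with the match 103 bases before the start: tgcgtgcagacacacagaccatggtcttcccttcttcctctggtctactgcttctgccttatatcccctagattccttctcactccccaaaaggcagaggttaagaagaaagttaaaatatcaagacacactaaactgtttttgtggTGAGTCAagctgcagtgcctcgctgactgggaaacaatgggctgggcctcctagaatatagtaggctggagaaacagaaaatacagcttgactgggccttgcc

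FOXP1, minus strand, chr3:71543558-71543807, inside the FOXP1 gene as listed (chr3:70954693-71583978), with the match 224 bases before the start: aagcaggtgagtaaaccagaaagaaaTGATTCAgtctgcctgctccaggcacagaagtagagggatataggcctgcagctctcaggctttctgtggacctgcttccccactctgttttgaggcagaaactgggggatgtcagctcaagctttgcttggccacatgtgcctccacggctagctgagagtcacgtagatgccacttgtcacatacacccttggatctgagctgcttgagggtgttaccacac

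PAX3, minus strand, chr2:222298999-222299248, directly before the PAX3 gene as listed (chr2:222199887-222298998): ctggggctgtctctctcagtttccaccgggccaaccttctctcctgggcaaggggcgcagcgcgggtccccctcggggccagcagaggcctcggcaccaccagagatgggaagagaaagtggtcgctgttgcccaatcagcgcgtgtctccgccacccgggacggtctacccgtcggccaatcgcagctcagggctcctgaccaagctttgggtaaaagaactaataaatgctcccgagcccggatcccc

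The scores of the 3 genes with a match differed in pattern. GLI2 was low in KO at day 25 as given above. FOXO3 was low in 1 KO library only. FOXP1 scored 68 and 56 in KO and 82 and 93 in WT at day 25, and 118 and 120 in KO and 76 and 95 in WT at day 30. PAX3, without a match in its window, was the one with a called change.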

How the data were processed

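RNA-seq of 12 libraries from H1-derived ThOs was analysed, 2 for each of 6 groups of genotype and day. The authors deposited 1 table per library with a position, a symbol and 1 expression score per gene, a normalized value rounded to whole numbers. The submitters' processing notes name bcl2fastq, RSEM, Bowtie2 and hg19, with no roles given, while the positions in the tables are on GRCh38. The normalization is not given in the sources used here. The 12 tables share their minimum, median and maximum, so differences in total level between libraries cannot be seen. Whether scores were assigned by rank is not stated, but equal scores had equal or close ranks in different libraries. ZIC1 at a score of 1412 ranked 89 in WT day 25 replicate 1, WT day 30 replicate 1 and OE day 30 replicate 2. A score thus stood for much the same rank in each library, and fold sizes may not be ratios of RNA amounts. Because the scores are not counts, depth is unknown.

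Scores were analysed as log2(score + 1), on which fold changes of low genes are understated, with limma 3.58.1 in R 4.3.3. One model with a mean for each group was fitted to all 12 libraries and 9497 genes, with an intensity trend. A filter for scores of 1 or more in 2 or more libraries left out 0 genes. Adjusted p-values are Benjamini-Hochberg values over all genes, and a call needs an adjusted p under 0.05 and at least 2-fold. Single genes were also tested with an exact two-sided permutation test. The fit was tested on simulated data. The factors were named if called, if among the 6 largest changes per direction without overlap and at an unadjusted p under 0.05, if highest in mean score in their family, or if widest between KO libraries. Others with values were chosen after their values were seen, and the members and gene lists were chosen with earlier results of these data known. Some listed genes enter the counts but are not reported here by name. Alternatives are given in the closing section.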

Additional observations from a re-analysis of the deposited data

Results flagged for a closer look

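In 126 groups of 4 libraries (each patterning factor in each genotype, both days together) 12 held a library set apart from the other 3 by more than Dixon's 95% limit. Chance gives about 1 in 20 such groups. In the KO groups, BARHL1 scored 48 in day 25 replicate 2 (others 94 to 102), FOXO3 scored 21 in day 30 replicate 2 (others 154 to 214), and ZIC4 scored 823 in day 25 replicate 1 (others 564 to 572). In the WT groups, MEIS1 scored 47 in day 25 replicate 1 (others 128 to 153), while SIX5 at 58 (others 85 to 90) and SOX9 at 220 (others 312 to 332) were low in day 30 replicate 2. In the OE groups, day 30 replicate 1 held FOXJ2 at 61 (others 68) and SIX5 at 96 (others 64 to 66). OE day 25 replicate 2 held FOXP4 at 288 (others 158 to 170) and SOX5 at 80 (others 109 to 112). OE day 25 replicate 1 held PBX3 at 84 (others 122 to 130), and OE day 30 replicate 2 held ZIC4 at 297 (others 406 to 428). The FOXO3 and ZIC4 libraries enter results given above: without OE day 30 replicate 2, the ZIC4 log2 fold change of OE against KO was -0.57 (limma adjusted p = 0.171).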

How the results depend on the processing

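For the counts of called patterning factors, 133 of 150 values under alternatives other than single libraries left out were within 1.5 times the main count, and the cause of the others was not tested. Some of this agreement was fixed in advance. Dropping the filter could change nothing, since it left out 0 genes. Median centring could change nothing either, since every library had its median at 106. Quantile normalization left the ZIC1 log2 fold change of KO against WT at 0.93. PAX3 was no longer called in OE against KO (0 called) with library weights or with only the libraries compared, and at 1.5-fold 2 were called (PAX3 and ZIC4), or 4.76% beside 3.18% of all genes. At 1.5-fold the counts at an unadjusted p were 9 in KO against WT (21.4%, beside 9.37% of all genes), 8 at day 25 (19% beside 12%), 6 at day 30 (14.3% beside 6.69%), 12 in OE against KO (28.6% beside 15.6%) and 6 in OE against WT (14.3% beside 5.01%). With only the libraries compared, 1 was called at day 30 in KO against WT at an unadjusted p, and the interaction of KO effect and day gave 2, as it did with library weights. Leaving out both KO replicate 2 libraries, chosen after seeing the data, gave 1 at an adjusted p in KO against WT (ZIC1), 1 at day 25 (FOXN3) and 1 at day 30 (ZIC1), 2 at an unadjusted p over both days, 2 in OE against KO (PAX3 and ZIC1) and 8 for the interaction of KO effect and day. The lone KO library of a day is then assumed to vary like the other groups.

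With single libraries left out, counts at an adjusted p ranged from 0 to 6 in KO against WT over both days, 0 to 0 at day 25, 0 to 7 at day 30, 0 to 5 in OE against KO, 0 to 0 in OE against WT, 0 to 1 between days and 0 to 2 for the interaction. At an unadjusted p they ranged from 1 to 7, 4 to 6, 2 to 12, 2 to 6, 1 to 3, 0 to 1 and 3 to 11 in the same order. The highest count came without KO day 30 replicate 1 in each, except KO against WT at day 25 (without KO day 25 replicate 1) and OE against WT (without OE day 25 replicate 1). The factors called in KO against WT when KO day 30 replicate 1 was left out were all lower in KO, with FOXK1, FOXO3, OTX1, SOX3 and ZIC2 among them. In each of these fits the library left alone in its group is assumed to vary like the other groups, so the counts rest on that assumption.

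With the replicate number as a block, PAX3 in OE against KO had a limma adjusted p of 0.00184, and SOX11 lost its adjusted p (0.0647). Deviations of same-numbered libraries correlated between -0.21 and 0.26 and the labels tie no number to a batch, so the samples share only a number. The 14 fold changes of named factors kept their direction in all 252 values. They were chosen for libraries without overlap, so leaving libraries out or weighting them could not reverse a direction. Of the 252 values, 32 lost their side of a threshold. For PAX3, ZIC4 and SOX11 in OE against KO the threshold was an adjusted p under 0.05. The other changes had no adjusted p under 0.05 in the main fit, and their threshold was an unadjusted p under 0.05. PAX3 in OE against KO ranged from -1.85 to -1.32 (adjusted p 0.00184 to 0.0706), ZIC4 from -0.83 to -0.57 (0.0159 to 0.171) and SOX11 from 0.44 to 0.60 (0.0158 to 0.211). Depth is unknown, so what it limits could not be computed.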
